A study of Danio rerio with 24 samples.

Results

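This comparison set the livers of zebrafish larvae without working *mtm1* directly against the livers of WT larvae that had been overfed. The *mtm* group carries a homozygous loss-of-function mutation in *mtm1* in a study that raised AB strain fish, and no change of its feeding is stated, so genotype and feeding differ together between the groups. The overfed group was WT and was given 6 times the usual food between days 5 and 7. The methods say that its livers had steatosis. From fat staining at 5 dpf, the paper proposes steatosis for *mtm* livers too. Steatosis was thus not reported for the overfed group alone. The methods and the figure legend put all larvae at 7 dpf, while the paper's results text gives 5 dpf for WT and *mtm* livers. Each library was made from 40 dissected livers, pooled before RNA was extracted. A library thus averages over many animals and all cell types that came with the liver. There were 4 overfed libraries, none of them marked as resubmitted. The 6 *mtm* libraries were 3 submitted first (replicates 1 to 3) and 3 that the labels mark as resubmitted (R1 to R3). The methods give 4 to 5 replicates per group. Nothing in the labels says that the later *mtm* libraries came from pools of their own, so p-values measure the spread between libraries, part of which may be technical. Of 19793 genes in the table, the 13274 with a summed count of 100 or more in the 10 libraries were tested. Values of normally fed WT livers (4 libraries) are given only side by side. These 4 libraries and 4 of ethanol-treated WT livers, which are not described here, were in the same edgeR fit. They thus helped set the scaling, the spread and the p-values.

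MTM1 is a phosphatase that removes the phosphate of the 3 position from phosphoinositides, the lipids that label endosomes, and it is known for its part in myotubular myopathy. The liver of a larva takes up fat and sugar from food and yolk, makes cholesterol and bile acids, exports lipid in lipoproteins and secretes most plasma proteins. Cholesterol synthesis is held by a feedback loop, in which the factor SREBP2 switches the enzymes on when membrane sterol is low, while sterol derivatives that bind the LXR receptors switch efflux genes on. Resident macrophages (Kupffer cells in mammals), endothelium, bile duct cells and stellate cells lie between the hepatocytes, and blood cells come with them. Roles below are those of the genes of the same name in mammals unless a fish is named.

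Levels are given in CPM, counts scaled to library size by TMM, for *mtm* as the lowest, highest and median of 6 libraries and for overfed as the 4 libraries in order of number. Differences are log2 fold changes of *mtm* minus overfed with their SE, and each adjusted p is from edgeR, corrected by Benjamini-Hochberg across the 13274 genes. Called genes had an adjusted p below 0.05 and a log2 fold change beyond 2 in either direction, while members of gene lists were counted on adjusted p alone.

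The estimated counts summed to between 8919274 and 15831830 in the *mtm* libraries and to between 15131025 and 20582311 in the overfed libraries. Genes of the mitochondrial genome took 12.7% to 32.2% of the counts in *mtm* and 5.43% to 13.4% in overfed libraries. On the first principal component, with 61.0% of the variance, the *mtm* libraries lay between 14.2 and 52.7 and the overfed libraries between -57.8 and -52.9. *mtm* replicate R2 stood apart on the second component (11.2% of the variance), at -51.1 against -7.17 to 25.2 for the other 9 libraries, and *mtm* replicate 1 lay nearest to the overfed libraries on the first. The hepatocyte marker *fabp10a*, a fatty acid binding protein of fish liver, was at 7140 to 26390 CPM (median 10878) in *mtm* and at 12211, 9673, 12597 and 13284 CPM in overfed livers, with overlapping groups. The other hepatocyte marker tested, *apoa2*, was lower in *mtm* and is described with the apolipoproteins.

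**Figure D1:**
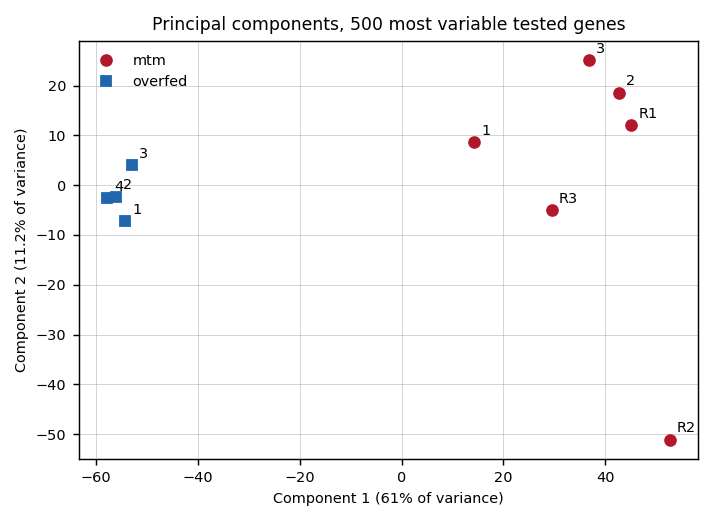
Scores of the 6 *mtm* (circles, labelled by replicate) and 4 overfed (squares) libraries on the first and second principal components of log2 CPM over the 500 most variable tested genes, with the share of variance on each axis. The overfed libraries sit together between -57.8 and -52.9 on the first component, while the *mtm* libraries spread from 14.2 to 52.7 and replicate R2 lies apart on the second.

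The targeted gene was measured first. *mtm1* transcript was at 2.25, 2.34, 1.03, 0.55, 0.153 and 0.674 CPM in *mtm* replicates 1, 2, 3, R1, R2 and R3, and at 3.82, 4.47, 4.91 and 7.75 CPM in overfed livers. The groups did not overlap, and every *mtm* library lay below every overfed one, in the direction of the labels. The edgeR value was log2 fold change -1.85, SE 0.74, adjusted p = 0.0804, which did not pass. An exact permutation test of the log2 levels, 6 against 4 and two-sided, gave p = 0.00952, the smallest this design allows. That test took the 6 *mtm* libraries as independent of each other, which the labels do not state. These values rest on 2 to 107 counts a library.

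Between *mtm* and overfed livers, 888 genes were called higher in *mtm*, which is 6.69% of those tested, and 626 were called lower, 4.72%. Without the fold limit 1683 genes were higher and 1492 lower. The median log2 fold change over all tested genes was 0.06. Using only the first-submitted *mtm* libraries gave 769 higher and 640 lower genes, and only the resubmitted ones gave 852 and 710. With same-numbered *mtm* libraries summed, 987 genes were higher and 635 lower. Leaving out 1 of the 10 libraries at a time gave 679 to 969 higher and 470 to 719 lower genes.

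Of the called genes whose groups were separate and whose mean reached 1 CPM, the largest falls included sterol enzyme genes, a chemokine gene and a transporter gene. *sqlea*, squalene epoxidase, was at 0 to 1.46 CPM (median 0.191) in *mtm* and at 276, 571, 269 and 236 CPM in overfed livers. *lss*, lanosterol synthase, was at 0 to 4.32 CPM (median 0.704) against 449, 649.9, 429 and 423 CPM. *txnipb*, a thioredoxin-interacting protein that answers to glucose, was at 0 to 0.843 CPM (median 0.0244) against 142, 148, 50.8 and 213 CPM. In *sqlea*, *lss* and *txnipb* the highest *mtm* library lay far below the lowest overfed one.

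Other genes of this group had no count in any *mtm* library. The chemokine gene *ccl39.2*, at 22.2, 28, 23 and 20.6 CPM in overfed livers, was at least 757-fold lower in *mtm*, taking 3 counts over the 6 libraries as the limit of a zero. On the same limit *guca1g*, of the guanylate cyclase activator family (7.69, 25.8, 10.9 and 8.98 CPM), was at least 446-fold lower, *wdr47b* (8.16, 13.3, 8.41 and 17.8 CPM) at least 372-fold, the sulfate cotransporter gene *slc13a4* (13.4, 13.2, 8.68 and 7.75 CPM) at least 354-fold, and *nots*, the liver aspartic protease nothepsin of fish (0.628, 2.21, 2.62 and 7.1 CPM), at least 90.3-fold. The remaining names on the list of falls were si:ch211-71m22.3 and LOC100216314.

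The largest rises included an immune enzyme and a lipid transfer protein. *irg1l*, related to the enzyme that makes itaconate in macrophages, was at 11.6 to 207 CPM (median 59.9) in *mtm* and at 0, 0.0983, 0.0673 and 0.145 CPM in overfed livers. *pltp*, phospholipid transfer protein and a gene switched on by LXR, was at 298 to 739 CPM (median 444) against 1.83, 0.541, 1.61 and 3.11 CPM. *asb11*, an adaptor of ubiquitin ligases, was at 2.9 to 32.1 CPM (median 19.9), with 3 of the 4 overfed libraries at 0. *lepb*, a leptin gene of fish, was at 0.0767 to 20.5 CPM (median 3.94), also with 3 overfed libraries at 0. Its lowest *mtm* value and the 0.0491 CPM of overfed replicate 2 both lie under 3 counts, so the separation of its groups is uncertain. The other 6 of the 10 were known only by clone or locus names: LOC100535931, zgc:174357, si:ch211-153b23.4, LOC103910140, si:ch73-343l4.8 and si:ch211-153b23.3.

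The 49 lists of pathway and cell type genes were counted against the background of all tested genes, of which 12.7% were higher in *mtm* and 11.2% lower at the same adjusted p. Some genes are on more than 1 list. Members were kept by their summed count over both groups, so some were tested only through the group in which they were high.

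**Figure D2:**
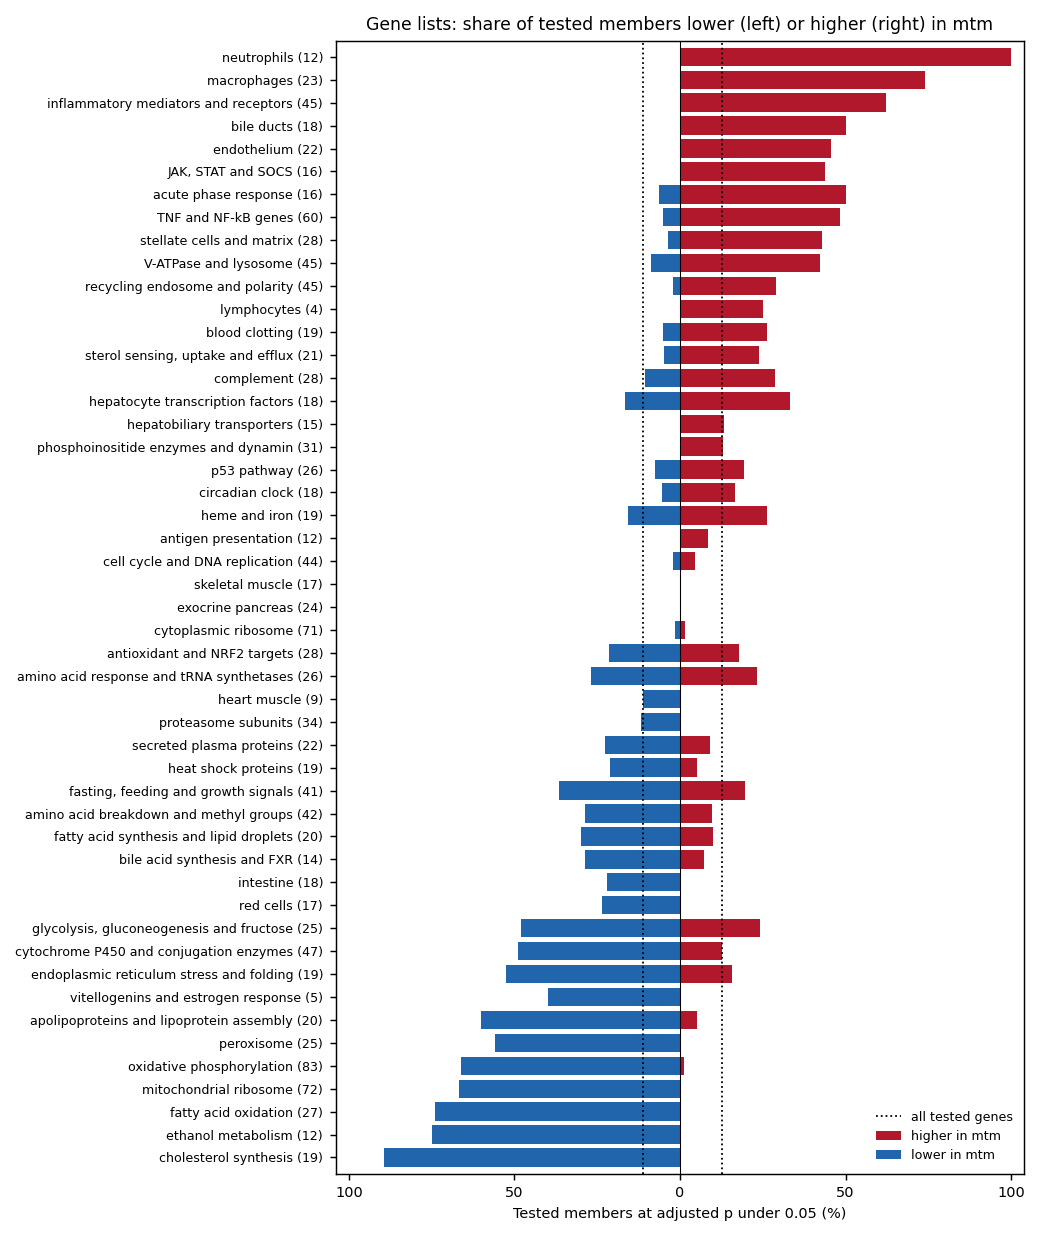
Share of the tested members of each gene list (number in brackets) that were higher (right, red) or lower (left, blue) in *mtm* than in overfed livers at an adjusted p under 0.05, with dotted lines at 12.7% and 11.2%, the shares over all tested genes. Leukocyte and inflammatory lists stand at the top and cholesterol synthesis, ethanol metabolism, fatty acid oxidation and mitochondrial lists at the bottom.

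Cholesterol synthesis had the largest fall of any list. Of 19 tested enzymes 17 were lower in *mtm*, none was higher, and the median log2 fold change was -6.78. All 17 were lower without overlap between the groups, where 10.5% of all tested genes were. The list summed to 187 to 316 CPM in *mtm* libraries and to 18082 to 28615 CPM in overfed libraries.

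The fall ran through the pathway from its first committed steps. *hmgcs1*, which joins acetyl units to HMG-CoA, was at 2.45 to 43.9 CPM (median 17.9) in *mtm* and at 3447, 4917, 2713 and 2465 CPM in overfed livers (log2 fold change -7.71, SE 0.77, adjusted p = 5.75e-06). *hmgcra*, HMG-CoA reductase, the rate-limiting enzyme, was at 2.15 to 18.2 CPM (median 6.79) against 2240, 3645, 2176 and 2432 CPM (log2 fold change -8.52, SE 0.54, adjusted p = 1.31e-07). For the mevalonate enzymes that follow, the log2 fold changes were -6.44 for *mvk*, -3.60 for *pmvk*, -7.08 for *mvda* and -7.28 for *fdps*. Each of these was low in all 6 *mtm* libraries, except *pmvk* at 30.4 CPM in replicate R2, which was still below the overfed range of 61.4 to 124 CPM.

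The sterol steps after squalene were lower too. *cyp51*, lanosterol demethylase, was at 10.9 to 36.8 CPM (median 24.7) against 3491, 4686, 3313 and 3925 CPM and had the smallest adjusted p of the pathway (log2 fold change -7.31, SE 0.41, adjusted p = 5.38e-08). *msmo1*, a sterol methyl oxidase, was at 16.6 to 85 CPM (median 62.2) against 2555, 3458, 2538 and 2548 CPM (log2 fold change -5.65, SE 0.42, adjusted p = 3.83e-07). The last enzyme, *dhcr7*, was at 21.6 to 93.7 CPM (median 27.9) against 723, 766, 788 and 868 CPM and had the smallest fall of the enzymes that follow squalene (log2 fold change -4.31, SE 0.44, adjusted p = 6.42e-06). *hsd17b7*, *tm7sf2*, *nsdhl*, *ebp* and *sc5d* had log2 fold changes between -7.86 and -6.36, and *fdft1*, which makes squalene, had -6.34. The 2 members that did not pass were the second reductase gene *hmgcrb* (log2 fold change -0.72, SE 0.57, adjusted p = 0.412) and *ggps1*, which makes geranylgeranyl diphosphate and not sterol (log2 fold change 0.37, SE 0.26, adjusted p = 0.344).

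Cholesterol synthesis genes also stood higher in overfed than in WT libraries in every one of the 19 members, with a median log2 difference of 1.06, but no single member passed for that difference. At an unadjusted p under 0.05 the difference of overfed minus WT held for 10 of 19, against 3.96% of all tested genes. WT replicate 4 had the lowest level in 15 of 19 of these genes. Without WT replicate 4 (a choice made after the data were seen) the median was 0.84, with 19 of 19 above 0 and 4 at that p, where all genes gave 2.38%. Against WT the same *mtm* libraries had 17 of 19 enzymes lower, with a median of -5.79, where 8.21% of all genes were lower and 9.06% higher.

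**Figure D3:**
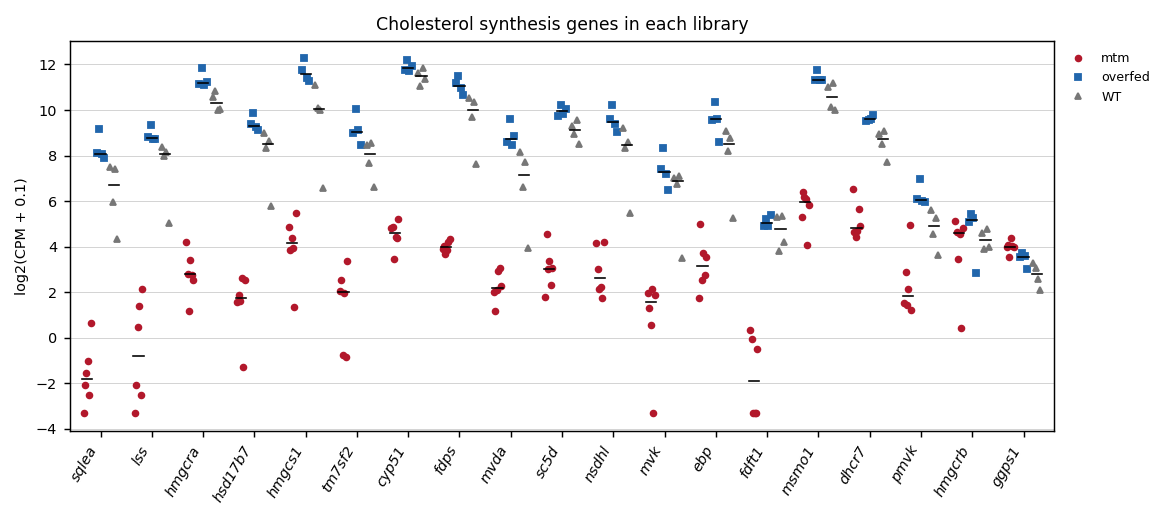
Level of each tested cholesterol synthesis gene in the 6 *mtm* (circles), 4 overfed (squares) and 4 WT (triangles) libraries, as log2 of CPM plus 0.1, with group medians as black bars and genes ordered by the *mtm* minus overfed difference. For 17 of the 19 genes every *mtm* library lies under every overfed library, and *hmgcrb* and *ggps1* overlap.

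Genes that sense, take up or export sterol did not follow the enzymes. Of 21 tested, 5 were higher in *mtm* (23.8%, against 12.7% of all genes) and 1 lower (4.76%, against 11.2%), with a median of -0.14. The lower count ran from 0 to 3 when 1 library was left out, 0 without overfed replicate 2 and 3 without *mtm* replicate 1 or R3. The list summed to 1840 to 3425 CPM in *mtm* and to 1437 to 1737 CPM in overfed libraries. Beside *pltp*, the LXR targets *abca1a*, a cholesterol exporter (log2 fold change 1.36, SE 0.28, adjusted p = 0.00192), and *mylipa*, which marks the LDL receptor for breakdown (log2 fold change 1.66, SE 0.28, adjusted p = 0.000409), were higher. *cetp*, which exchanges lipid between lipoproteins, had log2 fold change 1.66, SE 0.29, adjusted p = 0.000563, and *soat2*, which makes cholesterol esters, had log2 fold change 2.39, SE 0.46, adjusted p = 0.00115. In all 5 higher genes the lowest *mtm* library lay above the highest overfed one, as in 9.93% of all tested genes. The sister genes *abca1b* (log2 fold change 1.07) and *mylipb* (-1.28) did not pass. Nor did the efflux genes *abcg5* (-0.58) and *abcg8* (-2.30) or *srebf1* (-0.29), so the rise was not shared by all genes of this kind. *srebf2*, which encodes SREBP2, was lower (log2 fold change -0.93, SE 0.27, adjusted p = 0.0179), with overlapping groups and a call that was lost without overfed replicate 2. The SREBP2 target *ldlra*, the LDL receptor, was at 85.2 to 252 CPM (median 239.7) in *mtm* and at 227, 151, 249 and 392 CPM in overfed livers (log2 fold change -0.15, SE 0.30, adjusted p = 0.774), and *nr1h3*, the LXR gene, had log2 fold change 0.11, SE 0.25, adjusted p = 0.809.

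Fatty acid breakdown was lower at many steps. Of 27 tested oxidation genes 20 were lower in *mtm* and none higher, with a median of -2.02. *hadh*, of mitochondrial beta-oxidation, was at 8.97 to 42.8 CPM (median 18.6) in *mtm* and at 216, 207, 186 and 188 CPM in overfed livers (log2 fold change -3.49, SE 0.29, adjusted p = 9.4e-07). *acaa1*, the peroxisomal thiolase, was at 20.4 to 53.9 CPM (median 28.5) against 323, 428, 336 and 384 CPM (log2 fold change -3.51, SE 0.29, adjusted p = 9.4e-07). The receptor gene *pparaa*, whose product switches on oxidation genes, had log2 fold change -3.98, SE 0.91, adjusted p = 0.0043, and the carnitine enzymes *cpt2* and *cpt1aa* had log2 fold change -2.41, SE 0.43, adjusted p = 0.000696 and log2 fold change -1.26, SE 0.33, adjusted p = 0.0102. The groups overlapped for *cpt1aa*, whose call was lost without overfed replicate 2, and not for the other 4.

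Of 25 peroxisomal genes 14 were lower and none higher, and all 25 had a log2 fold change below 0 (median -1.25). *pipox*, which oxidizes pipecolate and sarcosine, was at 0 to 1.72 CPM (median 0) in *mtm* and at 55, 61.2, 45.6 and 36 CPM in overfed livers (log2 fold change -7.02, SE 0.89, adjusted p = 4.17e-05). *hsd17b4*, the bifunctional protein of very long chain and bile acid side chain oxidation, had log2 fold change -3.76, SE 0.52, adjusted p = 7.55e-05.

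Of 20 tested synthesis and lipid droplet genes 6 were lower and 2 higher. The elongases *elovl2* (log2 fold change -4.29, SE 0.34, adjusted p = 8.45e-07) and *elovl5* (log2 fold change -3.31, SE 0.30, adjusted p = 2.27e-06) and the citrate lyase *aclya* (log2 fold change -3.25, SE 0.33, adjusted p = 6.53e-06) were lower. *fasn*, fatty acid synthase, was at 42.7 to 88.3 CPM (median 79.3) in *mtm* and at 274, 290.3, 254 and 46.5 CPM in overfed livers, so overfed replicate 4 lay inside the *mtm* range (log2 fold change -1.66, SE 0.52, adjusted p = 0.0286). *dgat1b*, which makes triglyceride (log2 fold change 1.26, SE 0.38, adjusted p = 0.0241), and the droplet protein gene *cidec* (log2 fold change 1.32, SE 0.43, adjusted p = 0.0341) were higher. The calls of *dgat1b* and *cidec* were both lost without overfed replicate 1, 3 or 4, *dgat1b* also without *mtm* replicate 1 or 2 and *cidec* without overfed replicate 2. The call of *fasn* was lost without *mtm* replicate 3 or R1 or overfed replicate 1, 2 or 3.

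Apolipoproteins are among the most abundant liver transcripts. Of 20 tested lipoprotein genes 12 were lower in *mtm* and 1 higher (2 without *mtm* replicate R2), with a median of -2.15. *apoa2*, of high-density lipoprotein, was at 9482 to 68385 CPM (median 13047) in *mtm* and at 131188, 143729, 162714 and 112667 CPM in overfed livers (log2 fold change -2.84, SE 0.47, adjusted p = 0.000336). *apoba*, an apolipoprotein B gene, was at 143 to 648 CPM (median 183) against 1867, 1953, 1724 and 1760 CPM (log2 fold change -2.81, SE 0.38, adjusted p = 6.71e-05). *apoa4b.1*, made in response to fat, was at 143 to 1016 CPM (median 201) against 7870, 7989, 8249 and 6710 CPM (log2 fold change -4.64, SE 0.47, adjusted p = 5.75e-06). In *apoa2*, *apoba* and *apoa4b.1* the highest *mtm* library was replicate 1. The exception was *apoeb*, which macrophages also make, at 1269 to 2747 CPM (median 1941) against 487, 521, 757 and 806 CPM (log2 fold change 1.67, SE 0.41, adjusted p = 0.00689).

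Of 22 secreted plasma proteins 5 were lower (8 without *mtm* replicate 1) and 2 higher (9.09%, against 12.7% of all genes), with a median of -0.20. The fetuins *ahsg2* (log2 fold change -3.87, SE 0.50, adjusted p = 4.94e-05) and *fetub* (log2 fold change -1.84, SE 0.36, adjusted p = 0.00152) and the antitrypsin gene *serpina1* (log2 fold change -1.09, SE 0.23, adjusted p = 0.0029) were lower, and *plg*, plasminogen (log2 fold change 1.22, SE 0.29, adjusted p = 0.00608), and *ttr*, transthyretin (log2 fold change 1.1, SE 0.34, adjusted p = 0.0258), were higher, *ttr* not without *mtm* replicate R3 or overfed replicate 1, 3 or 4. Of 16 acute phase genes 8 were higher and 1 lower (4 without *mtm* replicate 1). The other 7 did not pass. Their log2 fold changes were -0.13 for *hp*, 0.01 for *fgg*, -0.83 for *crp2*, -0.06 for *crp3*, -0.77 for *a2ml*, -0.02 for *cebpd* and -0.52 for *lcn15*. The list summed to 5156 to 22021 CPM (median 8044) in *mtm* and to 6633 to 9034 CPM (median 8043) in overfed libraries, with overlap. The rise was thus not shared by all genes of this list. *socs3a*, the feedback inhibitor of cytokine signaling, was at 88.2 to 299 CPM (median 142) against 7.43, 13, 9.21 and 3.91 CPM (log2 fold change 4.22, SE 0.50, adjusted p = 2.45e-05). The iron hormone *hamp* (log2 fold change 2.18, SE 0.66, adjusted p = 0.0238) and *lect2l* (log2 fold change 2.98, SE 0.51, adjusted p = 0.00045) were higher, *hamp* not without *mtm* replicate 2 or overfed replicate 1 or 3, while *leap2*, an antimicrobial peptide and ghrelin receptor antagonist that follows feeding in mammals, was lower, at 0.55 to 1.29 CPM (median 0.784) against 24.2, 51.4, 17.1 and 19.8 CPM (log2 fold change -5.66, SE 0.62, adjusted p = 1.29e-05).

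Among 19 clotting genes 5 were higher and 1 lower (4 without *mtm* replicate 1 and 2 without overfed replicate 1). *tfpia*, the inhibitor of the tissue factor pathway, was at 155 to 486 CPM (median 364) against 30.5, 30.2, 36.2 and 45.6 CPM (log2 fold change 3.52, SE 0.34, adjusted p = 4.16e-06), and *pros1*, protein S, had log2 fold change 2.67, SE 0.39, adjusted p = 0.000141. Of 28 complement genes 8 were higher (28.6%, against 12.7% of all genes) and 3 lower (10.7%, near the 11.2% of all genes). *c6*, of the membrane attack complex (log2 fold change 2.42, SE 0.30, adjusted p = 3.26e-05), and *cfb*, factor B (log2 fold change 1.81, SE 0.32, adjusted p = 0.00064), were higher, whereas *c8a* (log2 fold change -0.96, SE 0.31, adjusted p = 0.0322) and *c8b* (log2 fold change -1.11, SE 0.31, adjusted p = 0.0165) were lower. The 3 lower calls became 1 without overfed replicate 2 or 3 and 5 without *mtm* replicate 1, and *c8a* lost its call without any of 7 libraries (*mtm* replicates 2, 3, R1 and R2 and overfed replicates 1, 2 and 3).

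The macrophage and neutrophil lists had a higher sum in every *mtm* library than in any overfed library. Of 23 tested macrophage genes 17 were higher and none lower, with a median of 3.31, and *csf1rb*, *slc7a7*, *ms4a17a.8* and the 3 complement genes given below did not pass. Of 12 neutrophil genes all were higher, with a median of 3.86. The table held 15 neutrophil members, and some of those tested on both lists passed the count filter only through their *mtm* counts. Such members could hardly come out lower, so these counts and medians were in part set by the filter. The macrophage list summed to 329 to 724 CPM in *mtm* and to 53.3 to 90.6 CPM in overfed libraries, and the neutrophil list to 1000 to 3707 CPM against 179 to 481 CPM. Most of the neutrophil sum was *lect2l*, which liver also secretes, at 581 to 3229 CPM (median 1525) in *mtm* and at 121, 155, 290.5 and 414 CPM in overfed livers. In pooled livers a larger number of cells and more RNA per cell cannot be told apart.

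Among the defining macrophage markers, *marco*, a scavenger receptor of macrophages, was at 25.3 to 64.4 CPM (median 50.9) in *mtm* and at 1.26, 1.97, 1.28 and 1.16 CPM in overfed livers (log2 fold change 5.07, SE 0.54, adjusted p = 1.03e-05). *mfap4*, a macrophage marker of zebrafish, was at 32 to 135 CPM (median 66.3) against 6.17, 3.54, 0.874 and 0.29 CPM (log2 fold change 5.04, SE 0.78, adjusted p = 0.000204). *mpeg1.1*, the perforin-like gene of fish macrophages, was at 7.19 to 16.1 CPM (median 12.7) against 2.04, 1.62, 1.21 and 0 CPM (log2 fold change 3.31, SE 1.04, adjusted p = 0.0287). None of the 3 overlapped between the groups, and *mpeg1.1* lost its call without *mtm* replicate R3 or overfed replicate 2 or 3. The growth factor receptor *csf1ra*, on which macrophages depend, had log2 fold change 5.80, SE 1.14, adjusted p = 0.00148, and *il34*, a ligand of that receptor, had log2 fold change 4.66, SE 0.69, adjusted p = 0.000147. The complement genes *c1qa*, *c1qb* and *c1qc*, made by macrophages, had log2 fold changes of 2.1, 2.33 and 2.66 and did not pass, at 0 to 7.81 CPM in *mtm*.

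The neutrophil granule gene *npsn* was at 38.2 to 120.2 CPM (median 52.5) in *mtm* and at 2.56, 0.59, 0 and 1.59 CPM in overfed livers (log2 fold change 6.03, SE 1.1, adjusted p = 0.000819). *lyz*, lysozyme, was at 41.5 to 81.7 CPM (median 59.4) against 4.71, 2.46, 0.74 and 2.75 CPM (log2 fold change 4.57, SE 0.77, adjusted p = 0.000434). The matrix protease *mmp9*, made by activated neutrophils and other cells, was at 17.1 to 83.6 CPM (median 46.3) against 1.05, 1.38, 1.55 and 0.724 CPM (log2 fold change 5.22, SE 0.49, adjusted p = 2.93e-06). The oxidase subunits *ncf1*, *cyba* and *cybb* had log2 fold changes of 6.24, 2.92 and 2.5. Of the lymphocyte list 4 of 16 genes in the table had enough counts to test and 1 was higher, and *lck*, *cd79a* and *rag1* fell under the count minimum. The lymphocyte list summed to 25.9 to 43.5 CPM in *mtm* and to 18.8 to 37.7 CPM in overfed libraries, with overlap.

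**Figure D4:**
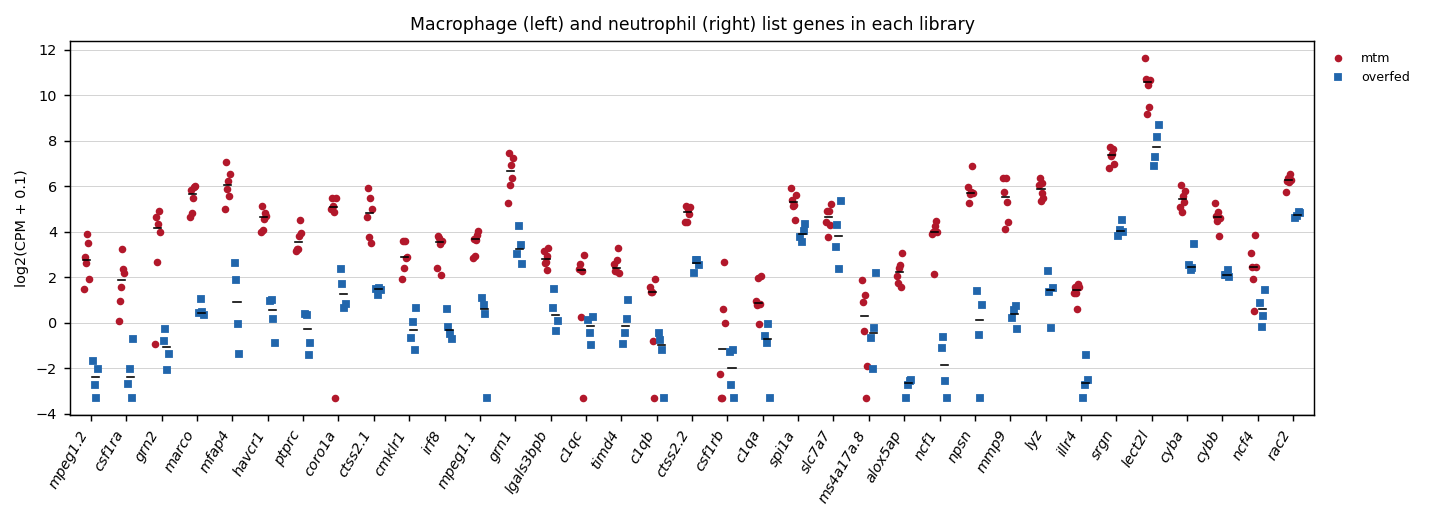
Level of each tested macrophage gene (left, from *mpeg1.2* to *ms4a17a.8*) and neutrophil gene (right, from *alox5ap* to *rac2*) in the 6 *mtm* (circles) and 4 overfed (squares) libraries, as log2 of CPM plus 0.1, with group medians as black bars. The *mtm* medians lie above the overfed medians in all 35 genes, some of which passed the count filter only through their *mtm* counts.

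Inflammatory mediators and their receptors were higher in 28 of 45 tested members and lower in none, with a median of 2.55. The chemokine gene *ccl39.2*, one of the largest falls given above, was not on this list. The table held 59 members, and some of those tested passed the count filter only through their *mtm* counts. Such members could hardly come out lower, so the count and the median were in part set by the filter. *ccl35.1*, a chemokine of fish, was at 63.4 to 600.4 CPM (median 401) in *mtm* and at 2.93, 2.85, 3.97 and 1.01 CPM in overfed livers (log2 fold change 7.16, SE 0.68, adjusted p = 3.7e-06). *il1b*, interleukin 1 beta, was at 7.48 to 65.3 CPM (median 30.6) against 2.2, 1.28, 0.874 and 1.38 CPM (log2 fold change 4.68, SE 0.77, adjusted p = 0.000354). *cxcl8a*, which draws neutrophils, was at 12 to 149 CPM (median 33.2) against 0.262, 7.32, 0.807 and 0.652 CPM (log2 fold change 5.08, SE 1.11, adjusted p = 0.00323). Overfed replicate 2 held the highest overfed *cxcl8a* value and still lay below the *mtm* range.

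Of 60 TNF and NF-kB genes 29 were higher and 3 lower (1 without overfed replicate 2 or 3), with a median of 1.17. *tnfb*, a TNF gene of zebrafish, was at 1.38 to 16.2 CPM (median 4.72) against 0.314, 0.147, 0.874 and 0.942 CPM (log2 fold change 4.05, SE 0.99, adjusted p = 0.00678). Feedback genes were among those that were higher, with log2 fold change 2.58, SE 0.53, adjusted p = 0.00197 for the inhibitor *nfkbie* and log2 fold change 2.25, SE 0.23, adjusted p = 5.75e-06 for *gadd45bb*. The mitochondrial superoxide dismutase *sod2* was lower (log2 fold change -1.77, SE 0.29, adjusted p = 0.000361). In the JAK, STAT and SOCS list 7 of 16 were higher and none lower, among them the kinase *pim1* (log2 fold change 3.42, SE 0.34, adjusted p = 5.64e-06) and *socs1a* (log2 fold change 2.40, SE 0.48, adjusted p = 0.00156), whereas the median was 0.27. Of 12 antigen presentation genes 1 was higher (8.33%, against 12.7% of all genes).

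Bile duct markers were higher in 9 of 18 tested members and lower in none, with a median of 2.11. *anxa4*, annexin A4 of the zebrafish biliary tree, was at 594 to 2866 CPM (median 1606) in *mtm* and at 250.3, 333, 358 and 308 CPM in overfed livers (log2 fold change 2.5, SE 0.42, adjusted p = 0.000412). *sox9b*, a transcription factor of biliary and progenitor cells, was at 48.6 to 208 CPM (median 111) against 20.3, 26.4, 15.7 and 22.2 CPM (log2 fold change 2.48, SE 0.37, adjusted p = 0.000154). *epcam*, an adhesion protein of biliary and gut epithelium, was at 86.8 to 571 CPM (median 350.1) against 31.1, 33, 19.6 and 21.7 CPM (log2 fold change 3.79, SE 0.52, adjusted p = 7.95e-05). In *anxa4*, *sox9b* and *epcam* the lowest *mtm* library was replicate 1. The defining marker *krt18b* was low in both groups, at 0 to 4.08 CPM in *mtm* and at 0.471, 1.28, 0.673 and 2.25 CPM in overfed livers. The Notch receptors *notch2* (log2 fold change 1.74, SE 0.32, adjusted p = 0.000775) and *notch3* (log2 fold change 1.35, SE 0.37, adjusted p = 0.013, lost without overfed replicate 3) were higher, and the ligand gene *jag1b* was not (log2 fold change 0.66, SE 0.35, adjusted p = 0.195).

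Endothelial genes were higher in 10 of 22 (6 without overfed replicate 1 or 2) and lower in none, with a median of 1.53. Of the 22, 3 lay higher in *mtm* without overlap between the groups, where 9.93% of all tested genes lay so. *kdrl*, the VEGF receptor, was at 112 to 239 CPM (median 203) against 40.0, 65.8, 90.3 and 88.7 CPM (log2 fold change 1.69, SE 0.38, adjusted p = 0.00353), *stab2*, of sinusoidal endothelium, had log2 fold change 1.67, SE 0.44, adjusted p = 0.0109 and lost its call without overfed replicate 2, and *cdh5* had log2 fold change 0.94, SE 0.37, adjusted p = 0.074 and did not pass. Of 28 stellate cell and matrix genes 12 were higher and 1 lower (2 without *mtm* replicate R1 or R2), with a median of 1.02. *pdgfrb*, a receptor of pericytes and stellate cells (log2 fold change 2.57, SE 0.38, adjusted p = 0.000146), and *timp2b*, an inhibitor of matrix proteases (log2 fold change 4.13, SE 0.49, adjusted p = 2.42e-05), were higher. *hand2*, the defining stellate marker of zebrafish, had log2 fold change 1.01, SE 0.56, adjusted p = 0.214 and did not pass, *acta2* was at 9.98 to 109 CPM (median 40.8) against 4.08, 1.72, 0.874 and 54 CPM (log2 fold change 3.63, SE 0.97, adjusted p = 0.0116, lost without overfed replicate 2), and *col1a1a* had too few counts to test.

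Lists of tissues next to the liver differed in their calls. Of 24 exocrine pancreas genes and 17 skeletal muscle genes none passed in the fit reported (1 and 0 at an unadjusted p under 0.05, and 1 and 0 in DESeq2). Without overfed replicate 1, 2 exocrine pancreas genes were higher, and under other alternatives up to 4 skeletal muscle genes were lower. Their sums ran from 318 to 25526 CPM for pancreas and from 26.7 to 1352 CPM for muscle in *mtm*. Of 18 intestinal genes 4 were lower (22.2%, against 11.2% of all genes), all of lipid or retinol handling: *apoa4a*, *apoa1b*, *fabp2*, at 0.642 to 34.5 CPM (median 8.84) in *mtm* and 308, 356, 235 and 216 CPM in overfed livers, and *rbp2a* (log2 fold change -5.67, SE 0.39, adjusted p = 2.02e-07). *apoa1b*, also on the apolipoprotein list, averaged 39196 CPM in *mtm* and 129201 CPM in overfed livers. The whole intestinal list averaged 39412 and 130322 CPM, so its sum was almost all *apoa1b*. The gut epithelium gene *vil1* was not lower (log2 fold change 2.00, SE 1.41, adjusted p = 0.345). Of 9 heart genes only *myl7*, a myosin light chain, was lower, at 0.0459 to 5.42 CPM (median 2.03) against 160.3, 398, 113 and 195 CPM (log2 fold change -6.79, SE 1.14, adjusted p = 0.000399), and WT livers held it at 164, 98.1, 47.3 and 57.8 CPM. Of 17 red cell genes 4 were lower (23.5%), and all 17 had a log2 fold change below 0. That count was 0 without overfed replicate 1 or 2, 1 without *mtm* replicate 1, 2 or R1 and 7 without *mtm* replicate R3. The part of these tissues in the results above was not tested.

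Nuclear genes for mitochondrial proteins were lower by small amounts. Of 72 mitochondrial ribosomal protein genes 48 were lower, none was higher, and all 72 had a log2 fold change below 0 (median -1.06). *mrpl12* was at 27.5 to 44.8 CPM (median 38.7) in *mtm* and at 118, 126, 114 and 101 CPM in overfed livers (log2 fold change -1.69, SE 0.27, adjusted p = 0.000287). This count varied with the libraries, from 19 to 57 when 1 library was left out, 19 without overfed replicate 2 and 29 without overfed replicate 1.

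Of 83 oxidative phosphorylation genes 55 were lower and 1 higher (median -0.80), with 33 to 58 lower when 1 library was left out, again fewest without overfed replicate 2. *atp5mc1*, of the ring of ATP synthase, was at 120.0 to 315 CPM (median 223) against 1032, 1238, 1114 and 1164 CPM (log2 fold change -2.51, SE 0.28, adjusted p = 1.46e-05), and *cox7a1* had log2 fold change -2.77, SE 0.35, adjusted p = 3.57e-05. The exception was *ndufa4l2a*, related to a hypoxia-induced subunit of mammals, at 110.1 to 474 CPM (median 169) against 8.68, 18.6, 20.8 and 19.8 CPM (log2 fold change 3.83, SE 0.52, adjusted p = 6.78e-05). Cytoplasmic ribosomal protein genes gave 1 higher (0 without overfed replicate 1 or 2) and 1 lower (2 without overfed replicate 4) of 71, with a median of -0.09. Of 34 proteasome subunits 4 (11.8%) were lower, near the 11.2% of all genes, with a median of -0.54. That count ran from 0 without overfed replicate 2 to 16 without *mtm* replicate 2 and was 2 without *mtm* replicate 1, R1, R2 or R3, overfed replicate 3 or 4 or WT replicate 4. In overfed minus WT, 64 of the 72 mitochondrial ribosomal genes and 74 of the 83 oxidative phosphorylation genes lay above 0, by medians of 0.30 and 0.18, while 6182 of all 13274 genes did. At an unadjusted p under 0.05 there were 6 and 2 of them, against 3.96% of all genes. Without WT replicate 4 the medians were 0.21 and 0.12, with 3 and 0 genes at that p. Against WT the *mtm* libraries had 13 of the 72 and 35 of the 83 genes lower, with medians of -0.69 and -0.58, where 8.21% of all genes were lower. All 34 proteasome subunits lay above 0 in overfed minus WT (median 0.48, and 0.40 without WT replicate 4). None of them was lower in *mtm* than in WT.

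Of 25 tested glycolysis, gluconeogenesis and fructose genes 12 were lower and 6 higher. *pklr*, liver pyruvate kinase, was at 349.9 to 1169 CPM (median 565) in *mtm* and at 6722, 8215, 7358 and 11470 CPM in overfed livers (log2 fold change -3.72, SE 0.31, adjusted p = 9.94e-07), and the muscle-type gene *pkma* was higher (log2 fold change 1.27, SE 0.25, adjusted p = 0.00163). *khk*, fructokinase, had log2 fold change -3.76, SE 0.43, adjusted p = 1.95e-05. *gck*, the liver glucokinase that follows feeding, was at 0.0767 to 15.3 CPM (median 2.62) against 112, 112, 11.4 and 2113 CPM, so overfed replicate 3 lay inside the *mtm* range (log2 fold change -5.37, SE 1.79, adjusted p = 0.0381). This call was lost under 12 of 22 alternatives, among them leaving out any 1 of the 10 libraries but *mtm* replicate 2 and overfed replicate 3. The hexokinases *hk1* (log2 fold change 2.40, SE 0.45, adjusted p = 0.000997) and *hk2* (log2 fold change 2.91, SE 0.58, adjusted p = 0.00158) were higher.

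Growth and feeding signals were lower in 15 and higher in 8 of 41 genes. *igf1*, the growth factor that liver makes under growth hormone, was at 0 to 0.429 CPM (median 0.0562) in *mtm* and at 6.75, 9.24, 6.66 and 1.3 CPM in overfed livers (log2 fold change -5.97, SE 1.28, adjusted p = 0.00274). *igfbp1b* and *igfbp1a*, binding proteins that rise in fasting and hypoxia, were at 7613 to 17243 CPM (median 11786) against 988, 768, 2406 and 1105 CPM (log2 fold change 3.36, SE 0.42, adjusted p = 3.6e-05) and at 4422 to 10391 CPM (median 7884) against 716, 2479, 2371 and 1159 CPM (log2 fold change 2.29, SE 0.41, adjusted p = 0.000661). *igfbp2a* was lower (log2 fold change -3.03, SE 0.43, adjusted p = 9.85e-05). *fgf21*, a hormone of the fasted or stressed liver, was at 0.383 to 27.1 CPM (median 4.71) against 0.105, 0.0983, 0 and 0.0724 CPM (log2 fold change 6.62, SE 1.15, adjusted p = 0.000555). *tsc22d3* and *fkbp5*, which glucocorticoids switch on, had log2 fold change -1.02, SE 0.25, adjusted p = 0.00695 and log2 fold change -0.73, SE 0.23, adjusted p = 0.0276, the latter call being lost without *mtm* replicate R2 or overfed replicate 1 or 3.

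Amino acid breakdown was lower in 12 and higher in 4 of 42 genes (28.6% and 9.52%, against 11.2% and 12.7% of all genes). *gatm*, the first enzyme of creatine synthesis, was at 18.1 to 371 CPM (median 103) in *mtm* and at 5016, 4723, 5194 and 4922 CPM in overfed livers (log2 fold change -5.43, SE 0.68, adjusted p = 3.66e-05), and the second enzyme, *gamt*, had log2 fold change -2.26, SE 0.38, adjusted p = 0.000444. *tat*, tyrosine aminotransferase, was at 4992 to 10882 CPM (median 7911) against 343, 565, 1430 and 158 CPM (log2 fold change 3.83, SE 0.58, adjusted p = 0.000165), and *got1* had log2 fold change 2.30, SE 0.28, adjusted p = 2.95e-05. Folding genes of the endoplasmic reticulum were lower in 10 and higher in 3 of 19. *hspa5*, the chaperone BiP, was at 57 to 156 CPM (median 143) against 785, 1203, 752 and 75 CPM (log2 fold change -2.66, SE 0.38, adjusted p = 0.000112), so overfed replicate 4 lay inside the *mtm* range, and *pdia6* had log2 fold change -2.36, SE 0.30, adjusted p = 4.78e-05. The higher genes were *atf4a* (log2 fold change 1.19, SE 0.22, adjusted p = 0.000926), *atf4b* and *ddit3*, which encode factors of the stress response, and *ddit3* lost its call without *mtm* replicate 2 or R1 or overfed replicate 1, 2 or 4.

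Detoxifying enzymes were lower in 23 and higher in 6 (2 without overfed replicate 2) of 47 cytochrome P450 and conjugation genes, with a median of -1.53. The share lower was 48.9% against 11.2% of all genes, while the share higher, 12.8%, was near the 12.7% of all genes. *gstr*, a glutathione transferase of fish, was at 37.4 to 79 CPM (median 50.5) in *mtm* and at 843, 894, 846 and 1006 CPM in overfed livers (log2 fold change -4.0, SE 0.25, adjusted p = 1.31e-07). *cyp2x9* had log2 fold change -5.80, SE 0.58, adjusted p = 5.75e-06. *cyp24a1*, which breaks down vitamin D, was higher, at 1915 to 6387 CPM (median 3648) against 105, 191, 626 and 107 CPM (log2 fold change 4.12, SE 0.62, adjusted p = 0.000159). Of the 12 genes that handle ethanol and acetaldehyde 9 were lower, among them *adh8a* (log2 fold change -6.63, SE 0.84, adjusted p = 3.91e-05) and *acss2l* (log2 fold change -5.93, SE 0.42, adjusted p = 2.11e-07).

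Antioxidant genes split, with 5 of 28 higher and 6 lower. *hmox1a*, heme oxygenase, was at 216 to 461 CPM (median 385) against 12.2, 4.91, 8.61 and 119 CPM (log2 fold change 4.71, SE 0.68, adjusted p = 0.000123), and the ferritin gene *fthl31* was at 147 to 279 CPM (median 176) against 8.63, 23.2, 15.5 and 31.2 CPM (log2 fold change 3.45, SE 0.35, adjusted p = 5.75e-06). *cat*, catalase (log2 fold change -2.84, SE 0.32, adjusted p = 1.69e-05), and *gstp1* (log2 fold change -3.41, SE 0.31, adjusted p = 2.27e-06) were lower. *alas1*, the first enzyme of heme synthesis in liver, had log2 fold change -2.1, SE 0.27, adjusted p = 4.24e-05, and 5 of 19 heme and iron genes were higher and 3 lower (5 without *mtm* replicate R2).

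Lysosomal genes were higher in 19 (12 without overfed replicate 3) and lower in 4 of 45, with a median of 0.64. The cathepsins *ctsl.1*, at 21.9 to 89.4 CPM (median 59) against 4.5, 2.8, 1.82 and 1.59 CPM (log2 fold change 4.27, SE 0.55, adjusted p = 4.69e-05), and *ctsk* (log2 fold change 4.82, SE 0.65, adjusted p = 6.74e-05) were among the higher ones. Macrophage markers were higher in the same libraries, and their part in this count was not tested. *scarb2a*, a receptor of lysosomal membranes, was lower (log2 fold change -2.07, SE 0.26, adjusted p = 3.57e-05). Among 31 phosphoinositide enzymes and dynamin genes, 4 were higher and none lower, a share of 12.9% higher against 12.7% of all genes. They were *pi4k2a* (log2 fold change 0.92, SE 0.28, adjusted p = 0.0244), *pik3c2a* (log2 fold change 1.51, SE 0.38, adjusted p = 0.00794), *inpp4aa* and *bin1b*. The count was 1 without overfed replicate 1 or 2 and 2 without *mtm* replicate 3 or R1, overfed replicate 4 or WT replicate 4. *pik3c2a* passed whichever of the 10 libraries was left out, while *pi4k2a* lost its call under 7, *inpp4aa* under 9 and *bin1b* under 17 of 22 alternatives. *dnm2a*, of the dynamin 2 family, was at 6.63 to 13.5 CPM (median 7.46) against 4.03, 6.09, 5.38 and 6.81 CPM (log2 fold change 0.71, SE 0.38, adjusted p = 0.19).

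Recycling endosome and polarity genes were higher in 13 and lower in 1 of 45 (median 0.48), the latter being 0 without *mtm* replicate R1 or R3 or overfed replicate 2 or 3 and 2 without *mtm* replicate 2. *cldnb*, a tight junction claudin (log2 fold change 3.83, SE 0.71, adjusted p = 0.000914), *tjp1b* (log2 fold change 1.88, SE 0.30, adjusted p = 0.000291) and *ehd1a*, of endosome recycling (log2 fold change 1.59, SE 0.26, adjusted p = 0.000314), were among the higher ones. *rab11a*, the GTPase of recycling endosomes, was at 121 to 160.3 CPM (median 139.6) against 102, 96.9, 106 and 117 CPM (log2 fold change 0.30, SE 0.22, adjusted p = 0.36), and *rab11ba* at 84.1 to 129 CPM (median 112) against 72.9, 74.4, 76.9 and 79.4 CPM (log2 fold change 0.54, SE 0.21, adjusted p = 0.0694). Both lay above the overfed range in all 6 *mtm* libraries without passing the test, while 9.93% of all tested genes lay so.

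Bile transporters were called higher at about the share of all genes. *abcb11b*, the bile salt export pump, was at 325 to 869 CPM (median 528) in *mtm* and at 718, 751, 525 and 407 CPM in overfed livers (log2 fold change -0.09, SE 0.31, adjusted p = 0.873). *abcc2*, which exports conjugates into bile, had log2 fold change -0.23, SE 0.61, adjusted p = 0.835, and *mtm* replicate 1, at 112 CPM, was well above the other 5. For *abcb11b* the 95% interval of the difference was -0.74 to 0.56 on the log2 scale, and for *abcc2* -1.53 to 1.07 on the log2 scale. Of 15 transporters 2 were higher, 13.3% against 12.7% of all genes, and none lower (0 to 1 when 1 library was left out). The higher ones were *abcc3*, which returns bile salts and conjugates to blood (log2 fold change 2.97, SE 0.56, adjusted p = 0.00107, with overlapping groups), and *slco2b1*, an uptake carrier (log2 fold change 1.42, SE 0.35, adjusted p = 0.00731). Of 14 bile acid genes 4 were lower, *hsd17b4*, *cyp8b1* (log2 fold change -2.53, SE 0.45, adjusted p = 0.000704), *cyp27a1.4*, not without *mtm* replicate 2 or overfed replicate 1, 2 or 3, and *hsd3b7*, and *fgfr4*, the receptor of FGF19, was higher (log2 fold change 2.57, SE 0.49, adjusted p = 0.00124). *cyp7a1*, the rate-limiting enzyme, was at 13 to 64.5 CPM (median 32.8) against 38.9, 108, 64.8 and 3.11 CPM (log2 fold change -0.68, SE 0.73, adjusted p = 0.556).

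Overfeeding by itself gave no gene at an adjusted p under 0.05 against WT in edgeR, with 525 genes (3.96%) at an unadjusted p under 0.05 and 27 genes (0.203%) at an adjusted p under 0.05 in DESeq2. The test of overfed against WT is also the test of whether a gene's difference from overfed and its difference from WT are unequal. That no gene passed it in edgeR does not show that the calls are the same with either control. At an adjusted p under 0.05, 1203 genes were higher and 1090 lower in *mtm* than in WT, and 1683 and 1492 than in overfed livers. Among called genes with at least 1 CPM, those with the smallest p for overfed minus WT are given by value. Both comparisons use the same overfed libraries, so this choice favours genes in which overfed livers stand lowest or highest. The order of the groups in these genes was thus in part set by the choice.

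*bcat1*, which breaks down branched-chain amino acids, was at 119.8 to 387 CPM (median 160.2) in *mtm*, at 7.74, 19.5, 21 and 23.6 CPM in overfed and at 41.6, 73.7, 177 and 194 CPM in WT livers. Its difference from overfed was log2 fold change 3.76, SE 0.48, adjusted p = 4.57e-05, and overfed minus WT was -2.66 (SE 0.46, adjusted p = 0.226). *stc2b*, a stanniocalcin gene, was at 183 to 426 CPM (median 331), at 26.7, 15, 47.2 and 61.4 CPM and at 66.6, 86.4, 275 and 190.3 CPM in the same order, with overfed minus WT at -2.06 (SE 0.36, adjusted p = 0.226). In both genes overfed livers were lowest, and the WT median lay between the others with 2 libraries inside the *mtm* range.

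*ccdc135* was at 57.8 to 133 CPM (median 94.8), at 1.1, 0.885, 2.56 and 1.01 CPM and at 2.02, 9.21, 10.5 and 10.8 CPM, with overfed minus WT at -2.51 (SE 0.46, adjusted p = 0.24). *aqp9b*, a glycerol channel of the family that feeds gluconeogenesis, was at 113 to 303 CPM (median 225), at 44.9, 35.7, 81 and 64.3 CPM and at 120.5, 135, 185 and 397 CPM, with overfed minus WT at -1.79 (SE 0.35, adjusted p = 0.296). For *aqp9b* the WT libraries overlapped with *mtm*, whose difference from WT was 0.39 (SE 0.33, adjusted p = 0.494). *gramd1c* and *cracr2b* had the same order, with overfed minus WT at -1.21 (SE 0.29, adjusted p = 0.709) and -2.38 (SE 0.56, adjusted p = 0.685). *rhoub* had its highest levels in 3 of the 4 overfed libraries, at 9.04 to 17.5 CPM (median 13.5) in *mtm*, 62.5, 68.5, 79 and 11.5 CPM in overfed and 16.8, 17.9, 20.9 and 9.54 CPM in WT livers. *gadd45bb* differed in its order, with WT lowest, at 5.35, 7.03, 3.58 and 7.07 CPM, and *mtm* highest. *igf1* stood at 0.522, 1.45, 0.073 and 0.0852 CPM in WT livers, with overfed minus WT at 3.42 (SE 1.31, adjusted p = 1). WT replicates 1 and 2 lay above the highest *mtm* library, while WT replicates 3 and 4 lay inside the *mtm* range, at values under 3 counts.

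**Figure D5:**
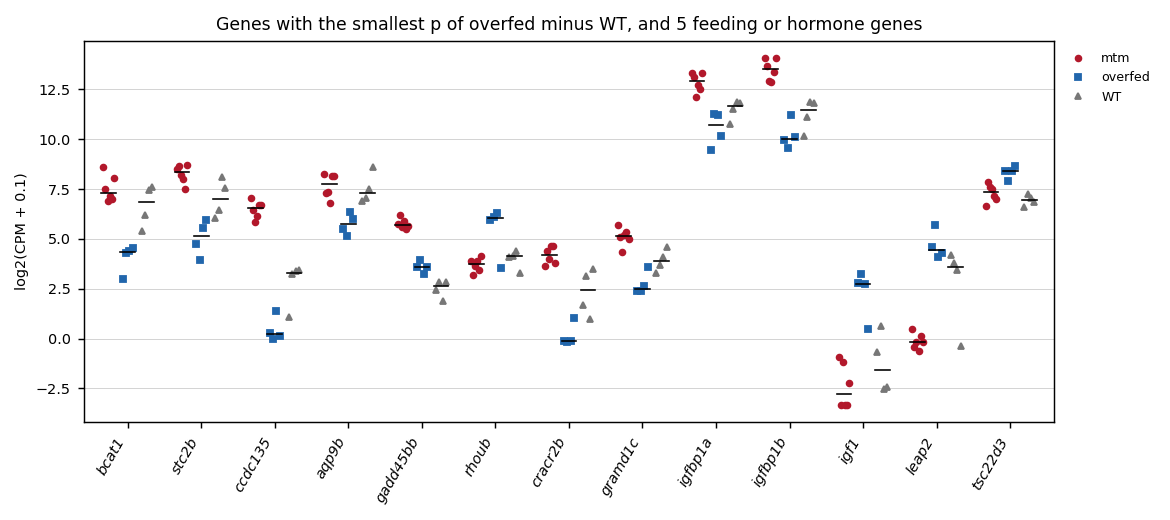
Level of the 8 called genes with the smallest p of overfed minus WT (*bcat1* to *gramd1c*) and of 5 feeding or hormone genes in the 6 *mtm* (circles), 4 overfed (squares) and 4 WT (triangles) libraries, as log2 of CPM plus 0.1, with group medians as black bars. In *bcat1*, *stc2b*, *ccdc135*, *aqp9b*, *cracr2b* and *gramd1c* the overfed libraries have the lowest median and *mtm* the highest, an order in part set by how the genes were chosen.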

How the data were processed

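Whole-liver RNA-seq of zebrafish larvae was analysed from the table deposited by the authors, which holds estimated counts per gene, written as whole numbers. Per the labels and the study's methods, amplified cDNA of pooled livers was sequenced, reads were trimmed with Trim Galore 0.6.6 after FastQC 0.11.09, quantified with Salmon against GRCz11 and tested with DESeq2 1.24.0. Reads of near-identical copies (*ccl35.1*, *apoa4b.1*, *cyp2x9*, *igfbp1a* and *igfbp1b* and the like) are divided by estimation and are less certain. Values rest on amplified reads without molecular identifiers, and zero limits (3 counts over a group) cover counting error only.

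The counts of 18 libraries (6 *mtm*, 4 overfed, 4 WT and 4 ethanol-treated) were fitted together in edgeR 4.0.16 (R 4.3.3) with TMM scaling and the replicate number as covariate, as in the study's methods. All groups shared one estimate of the spread, and genes were kept by their summed count in the 10 libraries compared. SEs were derived from the fold change and the F statistic. Same-numbered libraries did not deviate together (correlations from -0.41 to 0.08). Principal components used log2 CPM with a prior count of 2. The exact permutation test used scipy 1.17.1.

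The gene set, the 49 lists (1324 symbols, 1074 with a row, 19 through an older name) and the rule for named genes were chosen with earlier results of these data known. Genes named were *mtm1*, the 10 largest rises and falls, up to 4 members per list and direction by adjusted p, defining markers, genes the study discusses, and up to 8 genes by the p of overfed minus WT. Some further members are given by value and were chosen after their values were seen. Listed genes without a row were not analysed here. The test was checked on simulated data. Alternatives were DESeq2 1.42.0, other size factors, filters, fold limits, designs, subsets of *mtm* libraries and leaving out each library. The *abcb11b* mutant and sibling libraries were not used here.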

Additional observations from a re-analysis of the deposited data

Results flagged for a closer look

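Within a group, 37 of 434 sets of values of a named gene had 1 library far from the others by Dixon's criterion, where chance marks about 1 in 20. No explanation was tested. *mtm* replicate 2 stood apart for LOC100216314 at 0.596 CPM. Overfed replicate 4 stood apart for *adh8a* at 11.5 CPM, *cpt1aa* at 31.6 CPM, *cracr2b* at 1.96 CPM, *ehd1a* at 7.03 CPM, *fasn* at 46.5 CPM, *hk2* at 0.58 CPM, *hmgcrb* at 7.17 CPM, *hnf1bb* at 7.53 CPM, *hspa5* at 75 CPM, *nfil3-5* at 4.93 CPM and *rhoub* at 11.5 CPM. *mtm* replicate 1 stood apart for *apoa2* at 68400 CPM, *asns* at 18 CPM, *ccl35.1* at 63.4 CPM, *fabp10a* at 26400 CPM and *kdrl* at 112 CPM. *mtm* replicate R2 stood apart for *apoa4a* at 0 CPM, *elovl5* at 14.5 CPM, *fgfr4* at 13.7 CPM, *hk1* at 58.4 CPM, *hmgcrb* at 1.23 CPM, *hsd17b7* at 0.307 CPM and *mvk* at 0 CPM. Overfed replicate 3 stood apart for *asb11* at 0.202 CPM. Overfed replicate 2 stood apart for *atf4b* at 224 CPM, *jag1b* at 26 CPM, *kars* at 402 CPM, *lepb* at 0.0491 CPM, *lss* at 650 CPM, *msmo1* at 3460 CPM, *pmvk* at 124 CPM and si:ch211-153b23.4 at 0.197 CPM. *mtm* replicate 3 stood apart for *fasn* at 42.7 CPM, *ldlra* at 85.2 CPM and *ncf1* at 4.35 CPM. Overfed replicate 1 stood apart for *ndufa4l2a* at 8.68 CPM.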

How the results depend on the processing

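The 888 higher and 626 lower genes became 1683 and 1492 without a limit on the fold change and 1517 and 1266 with a log2 limit of 1. Leaving out 1 library gave 679 (without overfed replicate 2) to 969 (without *mtm* replicate R2) higher and 470 (without overfed replicate 2) to 719 (without *mtm* replicate 1) lower genes. DESeq2 gave 1138 and 770, and the stricter read filter of the study's methods 736 and 497. The replicate block stood in the fit reported: with no replicate block there were 881 higher and 598 lower genes, and in the 10 libraries alone 619 and 523 with the replicate block and 787 and 563 without it. *mtm1*, which did not pass in the fit reported, passed in DESeq2 (log2 fold change -1.89), with no replicate block (-2.16; -2.23 in the 10 libraries alone) and with only the resubmitted *mtm* libraries (-3.24). Leaving out 1 library moved it between -1.59 and -2.32, and it passed without *mtm* replicate 1 or 2. Overfed minus WT gave 0 genes in edgeR and 27 in DESeq2. The first component held 40.8% of the variance over all tested genes. Leaving out WT replicate 4 and the DESeq2 value of overfed minus WT were added after seeing the data. Of 194 genes named in the text that passed, 155 passed under each of the 22 alternatives that gave them a value. *apoa1b*, *pik3c2a*, *plg*, *pparaa*, *slco2b1*, *tnfb* and *tsc22d3* lost their call only in the 10 libraries alone with the replicate block, and *asns* and *onecut1* only with the first-submitted *mtm* libraries. Causes of these changes were not tested. Depth limits genes near the zero limit of 0.0315 CPM in *mtm*, such as *mtm1*, read from 2 counts in replicate R2.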

Other observations

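Hepatocyte transcription factors split, with 6 of 18 higher in *mtm* and 3 lower. *hnf1bb* (log2 fold change 2.89) and *onecut1* (2.03), which also act in bile ducts, were higher, and *foxa2* (-1.94) and *pparaa* were among the lower ones. Heat shock genes gave 4 of 19 lower (2 without overfed replicate 2), among them the mitochondrial chaperone genes *hspd1* (-1.93) and *hspe1* (-1.05, lost without overfed replicate 2), and 1 higher, *hspa8* (1.01). Of 26 amino acid response and tRNA synthetase genes 6 were higher and 7 lower (3 without overfed replicate 2). The carrier gene *slc3a2a* (2.62) and *sesn2* (1.57, lost without overfed replicate 3 or 4) were higher, while the synthetase genes *wars* (-2.38), *tars* (-1.80, lost under 8 of 22 alternatives) and *kars* (-1.27, lost without overfed replicate 2) and the asparagine synthetase gene *asns* (-1.44) were lower. The genes named passed in edgeR at an adjusted p under 0.05 in the fit reported.

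The p53 list gave 5 of 26 higher, with *phlda3* (3.19) and the kinase gene *plk2a* (3.12), and 2 lower. Cell cycle genes gave 2 of 44 higher, *ccnd1* (1.73) and *plk1* (1.59, lost under 10 of 22 alternatives), and 1 lower. These shares, 4.55% and 2.27%, lay below the 12.7% and 11.2% of all tested genes. The 2 higher became 4 without *mtm* replicate 1 and 1 without *mtm* replicate 3 or R1 or overfed replicate 1, 2 or 3. In the clock list *nfil3* (3.61) and *nfil3-5* (3.97) were higher, *cry1aa* (0.97) was higher in the fit reported but not under 13 of 22 alternatives, and *nfil3-6* (-2.07) was lower (3 lower genes without *mtm* replicate R3) of 18 tested. The yolk precursor gene *vtg5* (-3.43, lost without overfed replicate 1) and the estrogen receptor gene *esr2b* (-4.47) were lower. Of 13 genes of the mitochondrial genome, a list added after the data were seen, 3 were higher in *mtm*, *COX1* (1.39), *COX2* (1.2) and *COX3* (1.16). *COX1* lost its call without overfed replicate 2, and *COX2* and *COX3* each lost theirs under 10 of 22 alternatives, among them leaving out *mtm* replicate 3 or overfed replicate 1 or 2.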
